A study of Rattus norvegicus with 4 samples.

Results

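The genes described here are the G1 cyclins, the kinases they activate and the Myc factors, 10 genes chosen by name from the 17949 genes of an RNA-seq count table. They are the D-type cyclins Ccnd1, Ccnd2 and Ccnd3, the E-type cyclins Ccne1 and Ccne2, the cyclin-dependent kinases Cdk2, Cdk4 and Cdk6, and the transcription factors Myc and Mycn. All 10 had counts in every sample, from 231 for Cdk6 in a single sample to 68230 for Ccnd1, and all 10 passed the filter on low counts. RNA-seq was performed on primary rat Schwann cells (SCs), the myelinating glia of peripheral nerve, which were isolated from sciatic nerve. Cells were infected for 48 h with a lentivirus expressing the Egr2 promoter antisense RNA (Lenti-AS, n = 2) or with a control lentivirus carrying a green fluorescent protein (Lenti-GFP, n = 2). Both groups grew in medium with 10% serum, 4 μM forskolin and 5 ng/ml heregulin-β1, which are mitogens for SCs. The antisense vector carries a red fluorescent reporter, so an effect of the antisense RNA and a difference between the vectors cannot be told apart. The labels give no strain, age or sex of the animals.

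SCs leave quiescence when mitogens raise the D-type cyclins, which bind Cdk4 and Cdk6 and phosphorylate the Rb protein. This releases the E2F factors, which turn on Ccne1, Ccne2 and the genes of DNA synthesis, and cyclin E with Cdk2 completes the step into S phase. Myc and Mycn drive cell growth and ribosome production, bind E-box DNA as partners of Max, and raise the transcription of D-type cyclins and Cdk4 in many cells. Cyclin D1 is known in SCs for its induction after nerve injury, when the cells divide again.

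Total counts per sample lay between 74024323 and 96185890. The antisense RNA has no row of its own and the strand setting of the counting is not given, so Egr2 did not serve to check the labels. Egr2 had 49.2 and 42.1 CPM (counts scaled to a common library size) in Lenti-GFP and 61.2 and 54.0 CPM in Lenti-AS. It was thus higher in Lenti-AS, while the paper reports lower EGR2 protein with the antisense RNA, which is a different measure. Of 16 Schwann cell markers 15 had a row, and their summed level was 10596 to 10713 CPM in Lenti-GFP and 11175 to 12213 CPM in Lenti-AS, while Gap43 stayed under 1 CPM in every sample. Summed fibroblast markers lay between 3687 and 4111 CPM in Lenti-GFP and at 4340 and 2702 CPM in Lenti-AS 1 and 2. Of the 10 markers, 5, including Dcn, Lum and Thy1, were under 1 CPM in all samples. Most of the sum came from Col3a1 and Col1a1. Col3a1 had 3260 and 2955 CPM in Lenti-GFP and 2198 and 2400 CPM in Lenti-AS. Col1a1 had 840 and 721 CPM in Lenti-GFP, 2131 CPM in Lenti-AS 1 and 290 CPM in Lenti-AS 2. Macrophage markers summed to at most 4.47 CPM and endothelial markers to at most 22.2 CPM in any sample. The Lenti-AS samples were less alike than the Lenti-GFP samples. Among the 10251 genes averaging 1 CPM or more, the Lenti-AS pair differed by over 2-fold in 188 and the Lenti-GFP pair in 9. Lenti-AS 1 stood at least 1.5 times above the next highest sample in 324 of these genes and Lenti-AS 2 in 18, red cell globins among the latter (summed red cell markers of 3002 CPM against at most 7.39 CPM elsewhere). Whether these differences between libraries bear on the values below was examined only by leaving out each sample, which itself changed how many genes were called in the whole table. In edgeR's quasi-likelihood test, 0.00803% of all genes were called in either direction without Lenti-GFP 1 and 0.00803% without Lenti-GFP 2, 6.76% without Lenti-AS 1 and 12.2% without Lenti-AS 2, against 1.98% with all samples. Counts from these fits are to be read against those shares.

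No member of the group was called (0 of 10), where called means an adjusted p (Benjamini-Hochberg over all 12446 genes tested) under 0.05 and a fold change of at least 1.3 in edgeR's quasi-likelihood test. Of all genes tested, 1.98% were called, 1.31% higher and 0.667% lower in Lenti-AS. In CPM scaled by edgeR's TMM factors, both Lenti-AS samples lay above both Lenti-GFP samples for 10 of 10 genes, which held for 27.7% of all genes tested. The count was also 10 with library totals and with both other scalings tried. The differences were small, at a median of 0.22 on the log2 scale over the 10 genes and 0.0071 over all genes tested, and a range from 0.06 for Cdk4 to 0.62 for Ccne1. Without an adjustment, 4 of the 10 genes, the D-type cyclins and Ccne1, had p under 0.05 in the direction of Lenti-AS, against 12.5% of all genes. DESeq2 called 1 of the 10 (3.92% of all genes called higher) and the likelihood ratio test 1 (4.19%, either direction). With limma-voom 0 of the 10 were called, against 151 genes higher and 84 lower among all 12446 tested. With 2 samples per group an exact permutation test of a single gene cannot give a two-sided p under 0.333. In bulk RNA, a change in the number of cycling cells and a change in RNA per cell cannot be told apart.

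**Figure D1:**
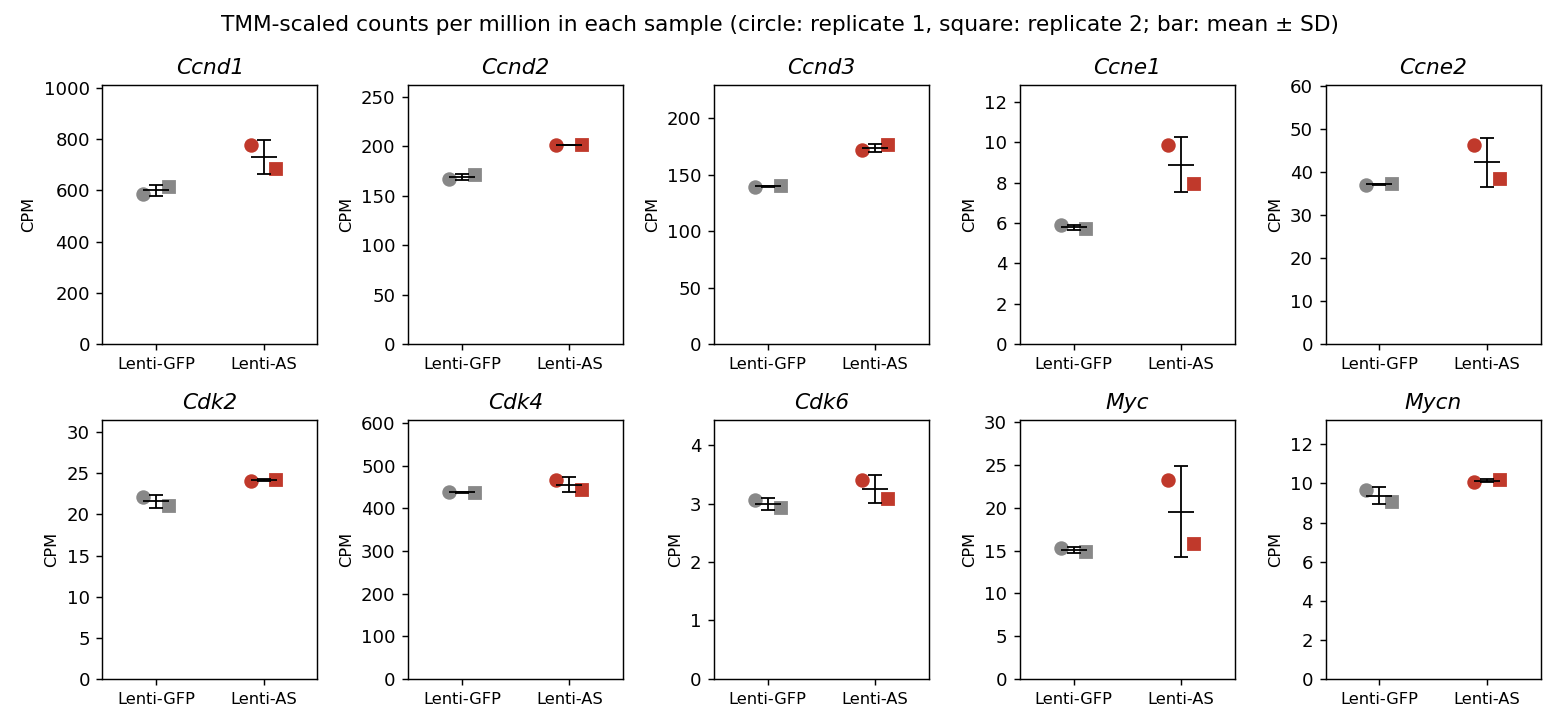
TMM-scaled CPM (vertical axis, from 0, a separate scale for each gene) of the 10 genes in the 2 Lenti-GFP (grey) and 2 Lenti-AS (red) samples, with circles for replicate 1, squares for replicate 2 and bars for the mean ± SD. The Lenti-AS points lie above the Lenti-GFP points in all panels, closely in Cdk6 and Cdk4, and in the Myc panel Lenti-AS 1 at 23.3 CPM lies apart from the other samples at 14.8 to 15.8 CPM.

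**Figure D2:**
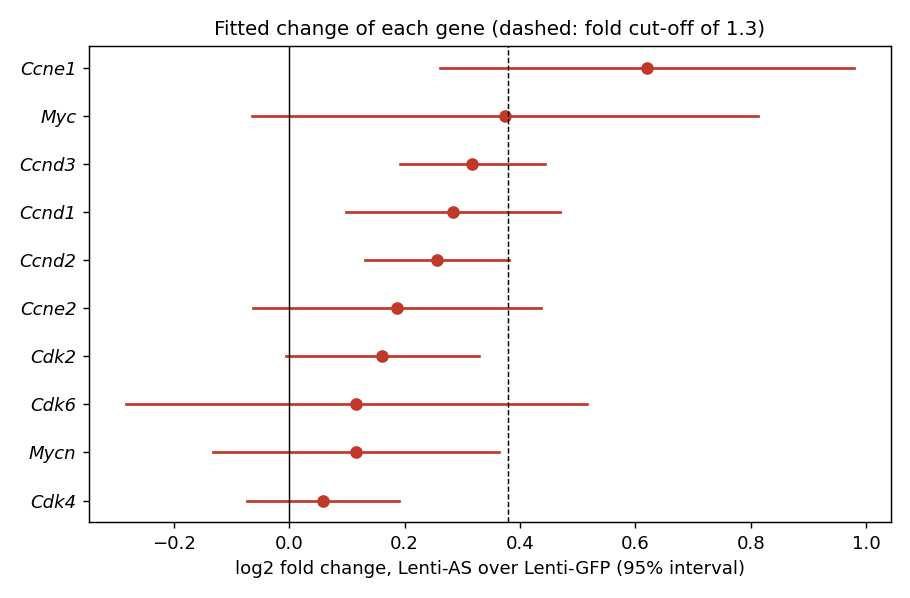
Fitted log2 fold change of Lenti-AS over Lenti-GFP (horizontal axis, points) with its 95% interval (lines) for the 10 genes, in order of size, and a dashed line at the fold cut-off of 1.3. The intervals of Ccnd1, Ccnd2, Ccnd3 and Ccne1 lie above 0, those of the other 6 genes include 0, and Ccne1 has the highest value at 0.62.

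Promoter sequences are shown for Ccne1 and Cdk4, the genes with the largest and the smallest fitted change. RefSeq promoters of the GRCr8 assembly were matched by symbol for 4 of the 10 genes, Ccnd3, Ccne1, Cdk2 and Cdk4, and the 250 bases before the start of the gene were searched on both strands for fixed motifs. The GRCr8 coordinates are not those of rn6, to which the reads were aligned.
In the Cdk4 promoter (GRCr8 chr7:64771203-64771452, plus strand) capitals mark the letters CACGTG, the E-box bound by Myc with Max.
Cdk4: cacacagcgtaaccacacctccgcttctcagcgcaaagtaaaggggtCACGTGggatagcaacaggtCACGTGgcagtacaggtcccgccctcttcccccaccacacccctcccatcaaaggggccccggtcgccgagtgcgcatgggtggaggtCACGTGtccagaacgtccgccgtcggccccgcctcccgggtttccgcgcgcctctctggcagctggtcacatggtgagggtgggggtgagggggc
In the Ccne1 promoter (GRCr8 chr1:99927910-99928159, minus strand) capitals mark the GC box GGGCGG on either strand.
Ccne1: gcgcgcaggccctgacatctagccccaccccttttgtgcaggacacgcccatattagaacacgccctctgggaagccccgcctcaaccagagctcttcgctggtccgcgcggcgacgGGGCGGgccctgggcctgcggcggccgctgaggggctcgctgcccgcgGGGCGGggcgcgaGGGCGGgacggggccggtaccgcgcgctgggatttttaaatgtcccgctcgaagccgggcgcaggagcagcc
The Cdk4 promoter holds 3 E-boxes, at -203, -183 and -95 relative to the start, and a GC box. In the table of 33469 promoters, 5.59% hold at least 1 E-box in this window and 0.0508% hold 3 or more. The Ccne1 promoter holds no E-box and 3 GC boxes, at -133, -85 and -72, and 7.41% of all promoters hold 3 or more. Ccnd3 had 2 GC boxes and Cdk2 had 4, each with a CCAAT box, whose letters are in 34.0% of promoters. The 4 promoters held no match to the E2F letters TTTCCCGC, TTTCGCGC, TTTGCCGC or TTTGGCGC, found in 1.73% of all promoters, and none to the AP-1 letters TGACTCA (4.05%) or the CRE letters TGACGTCA (1.59%). None of the motifs searched overlaps another in the Cdk4 or Ccne1 window.

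The D-type cyclins, which carry the mitogen signal to Cdk4 and Cdk6, were higher in both Lenti-AS samples by similar amounts, but none was called. Ccnd1 (cyclin D1) was at 586 and 615 CPM in the controls, and at 778 and 684 CPM after Lenti-AS infection. The groups were separated by 69.2 CPM, more than the 28.6 CPM between controls and less than the 94.4 CPM within Lenti-AS. Its log2 fold change was 0.28 (standard error 0.08, 95% interval 0.0982 to 0.47) (edgeR quasi-likelihood adjusted p = 0.117). Lenti-AS 1 was the highest sample. Ccnd2 (cyclin D2) measured 167 and 171 CPM in Lenti-GFP against 201 and 202 CPM in Lenti-AS. The samples within each group nearly coincided, and the log2 fold change was 0.26 (standard error 0.05, edgeR adjusted p = 0.0688). Ccnd3 (cyclin D3) stood at 139 and 140 CPM in Lenti-GFP and at 171 and 176 CPM in Lenti-AS. The groups were 31.6 CPM apart, against 0.427 and 5.03 CPM within them. With a log2 fold change of 0.32 (standard error 0.05), a fold of 1.25, Ccnd3 was the single member under the adjusted p threshold in edgeR (adjusted p = 0.0463), as were 1.40% of all genes in this direction, and it stayed below the fold cut-off of 1.3. Over the other tests, scalings, filters and designs with all 4 samples, its adjusted p ran from 4.77e-05 (DESeq2) to 0.124 (edgeR, block on replicate number). With each sample left out in turn, its log2 fold change lay between 0.30 and 0.34. DESeq2 also put Ccnd1 (adjusted p = 0.0118) and Ccnd2 (adjusted p = 0.00146) under the threshold, at folds below the cut-off.

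The sum of the D-type cyclins was 892 and 925 CPM in Lenti-GFP and 1151 and 1062 CPM in Lenti-AS. Ccnd1 took 65.7% and 66.4% of the D-type counts in Lenti-GFP and 67.6% and 64.4% in Lenti-AS, so that the Lenti-AS samples lay on either side of the controls. In Lenti-AS 2 the share of Ccnd3 was 16.6%, above the 14.9% to 15.6% of the other samples. These shares depend on gene length and are compared between samples, not between genes. Leaving out Lenti-AS 1 brought the log2 fold change of Ccnd1 from 0.28 to 0.19, while those of Ccnd2 and Ccnd3 were 0.26 and 0.34.

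Among the E-type cyclins, the activators of Cdk2, Ccne1 had the largest fitted change of the 10 genes and Ccne2 a small one. Ccne1 (cyclin E1) had 5.88 and 5.70 CPM in Lenti-GFP and 9.87 and 7.91 CPM in Lenti-AS, from 540 to 865 counts. Both Lenti-AS samples were above the controls, and the groups were 2.03 CPM apart, close to the 1.95 CPM within Lenti-AS. Its fitted log2 change was 0.62 (standard error 0.15, 95% interval 0.26 to 0.98), a fold of 1.54 (edgeR quasi-likelihood adjusted p = 0.0946). The call depended on the test. DESeq2 called Ccne1 (adjusted p = 0.0105), with 3.92% of all genes called higher, and so did edgeR's likelihood ratio test (adjusted p = 0.0374), with 4.19% of all genes called in either direction. Leaving out a Lenti-AS sample, which leaves 1 sample whose spread is taken from the other group, gave a call in the quasi-likelihood test as well, with a log2 fold change of 0.45 (adjusted p = 0.025) without Lenti-AS 1 and 0.77 (adjusted p = 6.24e-05) without Lenti-AS 2. Those fits called 4.58% and 10.2% of all genes higher. Leaving out either Lenti-GFP sample gave no call, in fits that called 0 genes higher in the whole table.

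Ccne2 (cyclin E2) showed 37.1 and 37.3 CPM in Lenti-GFP and 46.4 and 38.3 CPM in Lenti-AS. The difference lay in Lenti-AS 1, and Lenti-AS 2 was 1.05 CPM above the controls. The log2 fold change was 0.19 (95% interval -0.0621 to 0.44, edgeR quasi-likelihood adjusted p = 0.335) and was 0.043 without Lenti-AS 1. Ccne1 made up 13.7% and 13.3% of the E-type counts in Lenti-GFP and 17.5% and 17.1% in Lenti-AS. Both Lenti-AS shares were above both control shares. The 95% Wilson intervals, which cover counting error only, reached 14.8% at most in Lenti-GFP and 15.9% at least in Lenti-AS.

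The kinases themselves differed little between the groups. Cdk4, a partner of the D-type cyclins, had 438 and 437 CPM in Lenti-GFP and 468 and 443 CPM in Lenti-AS. Its log2 fold change of 0.06 (95% interval -0.0738 to 0.19, edgeR quasi-likelihood adjusted p = 0.559) leaves room for changes between 0.95-fold and 1.14-fold. This was the narrowest interval among the kinases, from at least 33338 counts per sample. Cdk2, the partner of cyclin E, had 22.2 and 21.0 CPM in Lenti-GFP and 24.1 and 24.2 CPM in Lenti-AS. All samples of a group were close and the groups lay 1.90 CPM apart, with a log2 fold change of 0.16 (95% interval -0.0061 to 0.33, edgeR adjusted p = 0.240). Cdk6, the other kinase of the D-type cyclins, was counted at 3.06 and 2.92 CPM in Lenti-GFP and 3.41 and 3.07 CPM in Lenti-AS. Its groups were 0.0092 CPM apart, and the 95% interval of its log2 fold change, -0.28 to 0.52, was the widest of the kinases (edgeR adjusted p = 0.711).

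Myc differed between the Lenti-AS samples more than between the groups. It had 15.4 and 14.8 CPM in Lenti-GFP, 23.3 CPM in Lenti-AS 1 and 15.8 CPM in Lenti-AS 2. Lenti-AS 2 was 0.416 CPM above the nearest control, while Lenti-AS 1 was 1.48 times Lenti-AS 2, a ratio reached by 4.38% of genes averaging 1 CPM or more. The log2 fold change of 0.37 (standard error 0.18, 95% interval -0.0652 to 0.81) had an edgeR quasi-likelihood adjusted p = 0.283. Without Lenti-AS 1 it was 0.064 (adjusted p = 0.727), and without Lenti-AS 2 it was 0.63 and was called (adjusted p = 5.32e-06), in a fit that called 10.2% of all genes higher. Mycn, its neural relative, had 9.67 and 9.06 CPM in Lenti-GFP and 10.1 and 10.2 CPM in Lenti-AS. The groups of Mycn were 0.425 CPM apart, less than the 0.610 CPM between controls. The log2 fold change of Mycn was 0.12 (95% interval -0.13 to 0.36, edgeR adjusted p = 0.538). Of the Myc and Mycn counts together, Myc took 69.8% in Lenti-AS 1 and 60.7% to 62.1% in the other samples.

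**Figure D3:**
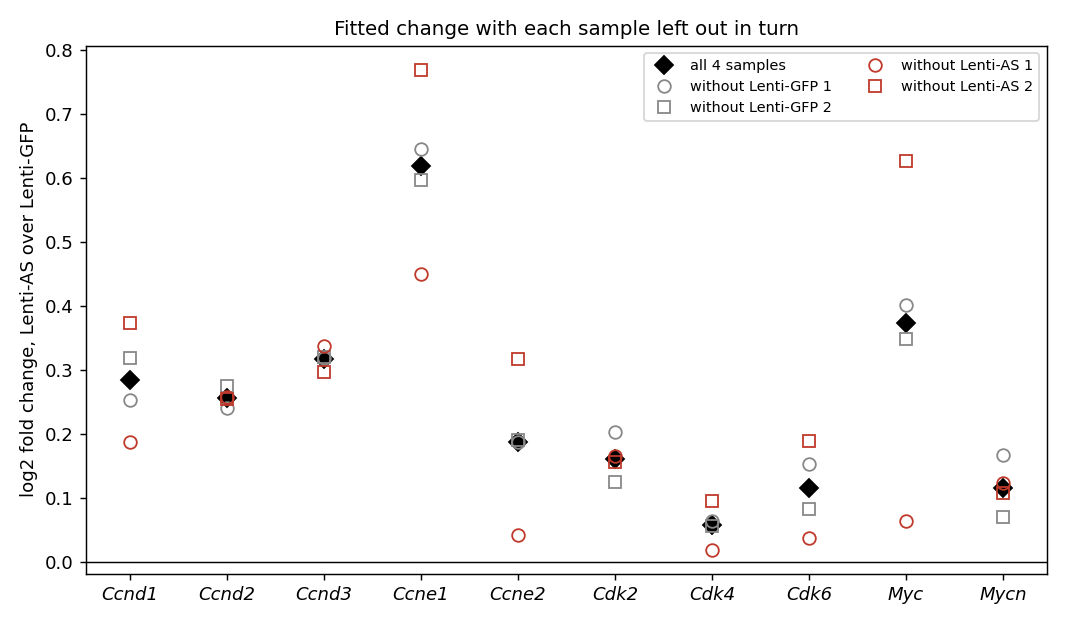
Fitted log2 fold change of Lenti-AS over Lenti-GFP (vertical axis) of the 10 genes with all 4 samples (black diamonds) and with each sample left out (grey, Lenti-GFP samples; red, Lenti-AS samples; circles, replicate 1; squares, replicate 2). Without Lenti-AS 1 the values of Myc and Ccne2 come down to 0.064 and 0.043, while those of Ccnd2 and Ccnd3 stay between 0.24 and 0.34 in every fit.

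The regulators of the G1 step were read from a list of 31 genes, of which 24 were tested. Of these, 3 were called higher and 0 lower in Lenti-AS, against 1.31% and 0.667% of all genes tested. The median change was 0.05 on the log2 scale. Cdkn1a, which encodes the p21 inhibitor of cyclin-dependent kinases, rose from 16.8 and 15.2 CPM to 61.4 and 41.2 CPM (log2 fold change 1.68, edgeR quasi-likelihood adjusted p = 0.0247). Rbl1, a relative of Rb that restrains E2F genes, rose from 23.7 and 24.5 CPM to 32.7 and 36.0 CPM (0.51 on the log2 scale, adjusted p = 0.0389). E2f1, an activating E2F factor, rose from 27.9 and 28.8 CPM to 37.6 and 38.0 CPM (0.42 on the log2 scale, adjusted p = 0.0419). Like Myc, Cdkn1a was highest in Lenti-AS 1, at 1.49 times Lenti-AS 2. Its 95% interval, 1.22 to 2.15 on the log2 scale, lay above that of Ccne1. Of the 24 genes, 0 were called without either of the Lenti-GFP samples (0.00803% of all genes in each fit), 5 without Lenti-AS 1 (6.76%) and 6 without Lenti-AS 2 (12.2%).

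The targets of E2F, the genes of S phase that the G1 kinases release, had fitted values on the side of Lenti-AS throughout. Of the 33 listed genes 32 were tested, and all 32 were fitted higher after Lenti-AS, as were 51.3% of all genes. Both Lenti-AS samples lay above both controls in 29 of them, against 27.7% of all genes. The test called 7 higher and 0 lower, against 1.31% and 0.667% of all genes, and the median change was 0.32 on the log2 scale. Rrm2, a subunit of ribonucleotide reductase, rose from 33.1 and 33.4 CPM to 52.1 and 52.1 CPM, and the replicates of each group nearly coincided (log2 fold change 0.65, edgeR quasi-likelihood adjusted p = 0.0192). Mcm3, of the replicative helicase, rose by 0.70 on the log2 scale (adjusted p = 0.0276). Tk1, a thymidine kinase, rose by 0.60 (adjusted p = 0.0298). Ccna2, the S phase cyclin that follows cyclin E on Cdk2, rose from 53.9 and 52.5 CPM to 74.2 and 81.3 CPM (0.55 on the log2 scale, adjusted p = 0.036). Ccna2 was higher in Lenti-AS 2 than in Lenti-AS 1 and Rrm2 was level in both, while Myc and Ccne2 were higher in Lenti-AS 1. Without Lenti-GFP 1 or without Lenti-GFP 2, 0 of the 32 were called, as 0.00803% of all genes were in each fit, with 11 called without Lenti-AS 1 (6.76% of all genes) and 13 without Lenti-AS 2 (12.2%).

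Among 28 tested genes of other cyclins and cyclin-dependent kinases, 3 were called higher and 0 lower, against 1.31% and 0.667% of all genes. The median change was 0.03 on the log2 scale. Ccng1, cyclin G1, a target of p53, rose from 775 and 819 CPM to 1165 and 1129 CPM (0.52 on the log2 scale, edgeR quasi-likelihood adjusted p = 0.0232). The mitotic cyclin gene Ccnb2 rose from 43.0 and 45.5 CPM to 71.8 and 67.6 CPM (0.65 on the log2 scale, adjusted p = 0.0252). Ccnf, cyclin F, rose by 0.59 on the log2 scale (adjusted p = 0.0389). All of these were separated between the groups in both replicates. The count was 0 without Lenti-GFP 1 or Lenti-GFP 2 (0.00803% of all genes called in each fit) and 6 of 28 without Lenti-AS 2 (12.2%).

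The lists around Myc had no called gene in edgeR's quasi-likelihood test. Of 36 tested Myc target genes, 16 had a higher and 20 a lower fitted level, and the median log2 fold change was -0.0137. Their p without adjustment was under 0.05 for 6 in the higher direction, against 12.5% of all genes, and for 4 in the lower. The gene with the smallest adjusted p was Cad, an enzyme of pyrimidine synthesis, with 26.4 and 21.4 CPM in Lenti-GFP and 36.3 and 33.6 CPM in Lenti-AS (log2 fold change 0.55, adjusted p = 0.0724). Among 15 tested partners and antagonists of Myc, p without adjustment was under 0.05 for 3 genes in each direction. The share of all genes was 12.5% in the higher direction and was not counted in the lower, here or for the other lists. Mxd3, a repressor that binds Max, came first with a log2 fold change of 0.51 (edgeR adjusted p = 0.0669). In both lists DESeq2 called 1 gene, which was higher in Lenti-AS, as it did for 3.92% of all genes. The likelihood ratio test called 1 gene in each list (4.19% of all genes, either direction) and limma-voom 0. Without Lenti-AS 2, where 12.2% of all genes were called, 3 of 36 Myc targets and 4 of 15 partners were called.

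The list of genes that turn over cyclins and Myc and the list of inputs to Ccnd1 and Myc transcription likewise had 0 called genes in edgeR's quasi-likelihood test. Of 15 tested turnover genes, p without adjustment was under 0.05 for 3 in the higher direction, against 12.5% of all genes, and for 2 in the lower. DESeq2 called 1 of the 15 higher (3.92% of all genes), the likelihood ratio test called 1 (4.19%, either direction) and limma-voom 0. Gsk3b, a kinase that marks cyclin D1 and Myc for degradation, led this list, with 12.3 and 12.6 CPM in Lenti-GFP and 20.8 and 16.1 CPM in Lenti-AS (log2 fold change 0.57, adjusted p = 0.0931). Of 29 tested input genes, p without adjustment was under 0.05 for 6 in the higher direction, against 12.5% of all genes, and for 4 in the lower. DESeq2, the likelihood ratio test and limma-voom called 0 of the 29. The first of these was Ctnnb1, encoding β-catenin, which had 1566 and 1594 CPM in Lenti-GFP and 1295 and 1329 CPM in Lenti-AS (log2 fold change -0.27, adjusted p = 0.0642). Without Lenti-AS 2, where 12.2% of all genes were called, the counts were 3 of 15 for turnover and 6 of 29 for inputs, and without Lenti-AS 1, with 6.76% called, they were 0 and 2.

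**Figure D4:**
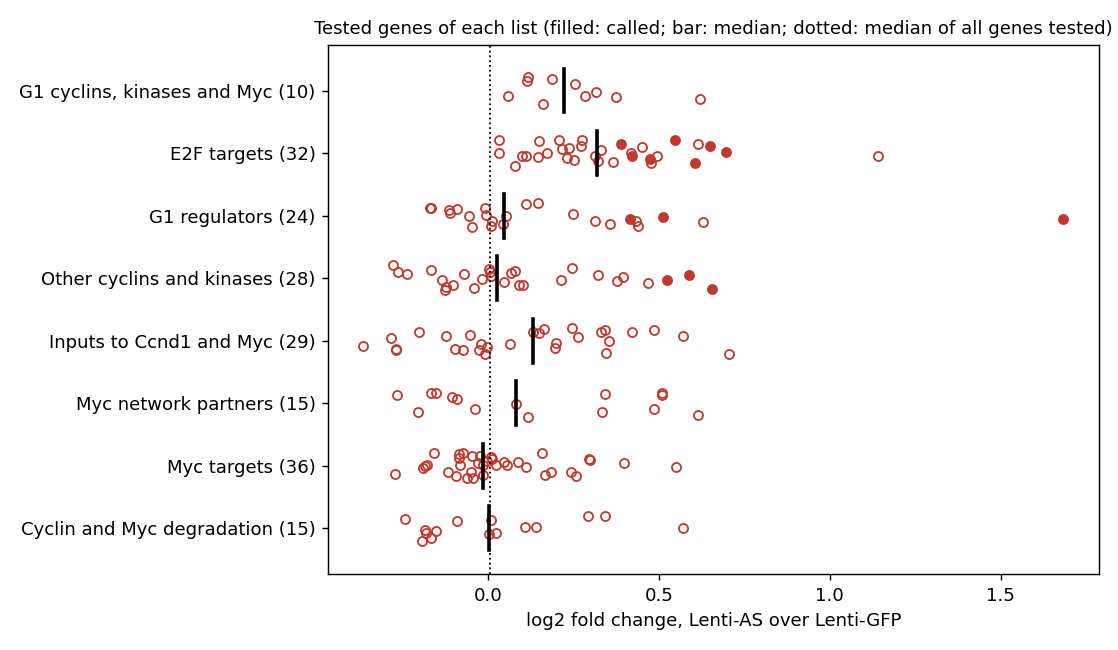
Log2 fold change of Lenti-AS over Lenti-GFP (horizontal axis) of every tested gene of the 10 G1 cyclin, kinase and Myc genes and of the 7 pathway lists (rows, number of genes in brackets), filled where called, with a bar at each median and a dotted line at the median of all genes tested. The E2F targets (median 0.32) and the G1 cyclin, kinase and Myc genes (0.22) lie to the right of the line, with no gene below 0, while the Myc targets are centred at -0.0137.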

How the data were processed

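Cultured rat SCs from 2 Lenti-GFP and 2 Lenti-AS infections were grouped by their labels. The authors counted reads per gene with featureCounts over RefSeq exons of rn6 and deposited whole-number counts, without normalization. For the alignment the paper names hisat2 and the submitters' processing notes name GSNAP. Versions, strand and multi-match settings are not given in the sources used here. A minimum of 10 counts in 2 or more samples left 12446 genes, which were tested in edgeR 4.0.16 (R 4.3.3; TMM, glmQLFit in its older form, glmQLFTest), with Benjamini-Hochberg adjustment over all genes. The biological coefficient of variation was 12.1%. DESeq2 1.42.0, limma-voom (limma 3.58.1), other scalings, filters, a replicate block and leaving out each sample were alternatives. The tests were also run on simulated counts with the same spread in both groups. That check does not cover the wider spread within Lenti-AS. CPM use TMM-scaled library sizes, and standard errors come from the F statistic. Replicates differed by more than sampling noise. The labels speak of biological replicates without naming separate cultures, so p-values measure the spread between these samples.

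Gene lists were written by hand. The members and lists were chosen with earlier results of these data known, and members, lists and tests are no independent support for one another. The text names all members and, from each list, the called genes with the smallest adjusted p (at most 4), or the first gene where none was called. List genes without a row were left out. Exon lengths of rn6 were not used, so levels are not compared between genes.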

Additional observations from a re-analysis of the deposited data

How the results depend on the processing

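With alternatives set for every result, all 10 genes kept a higher fitted level in Lenti-AS under every test, scaling, filter, block and left-out sample, and no named pathway gene changed direction. The median log2 fold change of the 10 genes was 0.25 with library totals, a scaling that moved the median of all genes to 0.0389, and 0.14 without Lenti-AS 1. The number of the 10 genes called higher was 0, where 1.31% of all genes were. It was 1 with DESeq2 (3.92% of all genes), 1 with the likelihood ratio test (4.19%, either direction) and 1 with no fold cut-off (1.40%). The number called lower was 0 throughout. DESeq2, which called 3.92% of all genes higher, called 6 of 24 G1 regulators and 12 of 32 E2F targets higher. It also called 1 of 15 turnover genes, 1 of 15 Myc partners and 1 of 36 Myc targets higher. In the same order, the likelihood ratio test called 6, 11, 1, 1 and 1, against 3, 7, 0, 0 and 0 in the quasi-likelihood test. These tests called 4.19% and 1.98% of all genes in either direction. With a sample left out the counts ran from 0 to 6 for G1 regulators, 0 to 13 for E2F targets, 0 to 3 for turnover, 0 to 4 for Myc partners, 0 to 3 for Myc targets, 0 to 6 for other cyclins and kinases and 0 to 6 for inputs. The cause was not tested. Same-numbered samples share no stated culture or day and showed no shared deviation (correlation of -0.0176 across genes). With the replicate block, 1 G1 regulator, 0 E2F targets and 0 other cyclins and kinases were called, and 9 of the 10 named pathway genes that had been called were no longer so. Over all genes, calls were 163 higher and 83 lower, 488 and 139 with DESeq2, 374 and 147 with the likelihood ratio test, 3 and 14 with the block, 0 and 1 without either Lenti-GFP sample, 570 and 271 without Lenti-AS 1, and 1266 and 253 without Lenti-AS 2. The lowest counts among the 10 genes were those of Cdk6, 231 to 299 per sample.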
